A study of Mus musculus with 16 samples.

Results

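The genes described here are 33 genes known to be induced by glucocorticoids in mouse tissues, measured in the hypothalamus of 16 mice. They were chosen by gene symbol, with older aliases allowed, among the non-control probes of an Agilent one-colour array. The list was drawn up with the difference in signal between KO chimeras and controls on these same arrays already known, so every difference between the groups below is a description and supports nothing by itself. They make up 33 of 34607 genes and 43 of 55681 probes on the array. Hypothalamic RNA from 8 KO chimeras and 8 control mice was labelled with Cy3 and hybridised with 1 animal per array, and the study asked what the loss of sympathetic drive to marrow cells does in bone, brain and gut. KO chimeras were made from lethally irradiated C57BL/6J recipients (950 Rad), which then received whole bone marrow of the strain Adrb1tm1BkkAdrb2tm1Bkk/J, which lacks the beta-1 and beta-2 adrenergic receptors, injected once behind the eye (retro-orbital), and recovered for 2 to 3 months. The labels set the knockout strain against C57BL/6J as 1 to 4 and do not state if marrow cells or animals are meant, so the intended share of knockout marrow is not settled. The controls are labelled as control mice with no donor strain, while the receiver-or-control strain (irradiated C57BL/6J, 950 Rad) and the treatment text are the same for all 16 animals, so whether controls were irradiated and given marrow is not settled by the labels. In a marrow chimera the donor genotype is carried mainly by cells of the blood lineage, while the neurons and glia of the host keep intact receptor genes. Neither age nor sex is given.

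Glucocorticoids released by the adrenal gland bind the glucocorticoid receptor, which moves into the nucleus and switches on target genes, often through a palindromic DNA element. In the hypothalamus the hormone closes the feedback loop of the stress axis by restraining the neurons that release corticotropin-releasing hormone. Several targets are brakes themselves, such as the receptor co-chaperone Fkbp5, the leucine zipper protein Tsc22d3 (GILZ) and the phosphatase Dusp1, while others serve ion transport, lipid handling and glucose use.

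Signals are log2 values of the processed signal from which the 75th percentile of that array was subtracted. Each array had 27276 to 43248 of its 59305 non-control spots well above background and 0 saturated spots, and the number of arrays limits the precision. The array with the fewest such spots (KO chimera 1) and the one with the most (control 8) were the 2 arrays of slide 4, and the scanner's spike-in line had an R2 of 0 on control 8, against 0.966 to 0.992 on the other 15 arrays. Without slide 4, 13 of the 33 genes described next passed as lower, with a median difference of -0.31. All 14 hypothalamus markers listed were tested, 13 of them well above background on all 16 arrays. All 33 lead probes of the glucocorticoid-induced genes, those with the highest mean per gene, were well above background on all 16 arrays. Of the 43 probes, 42 passed the filter of at least 8 such arrays, and the exception was a probe of Hif3a that reached this level in 1 KO chimera and 5 controls. In bulk tissue, fewer cells of a type and less RNA per cell cannot be told apart.

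Most of the glucocorticoid-induced genes were lower in KO chimeras than in controls. Of the 33 genes, 29 had a negative difference, against 50% of all 24358 genes tested, and their median difference was -0.31 on the log2 scale, against 0.00022 over all genes. Of the 33, 14 passed as lower (limma, Benjamini-Hochberg adjusted p below 0.05 over all genes), where 2.77% of all genes did. These were Sgk1, Plin4, Hif3a, Gpd1, Rhou, Zbtb16, Arl4d, Arrdc2, Tsc22d3, Mfsd2a, Sult1a1, Klf9, Mertk and Fkbp5. By limma 0 passed as higher, where 1.03% of all genes did. At an unadjusted p below 0.05, 1 (Angptl4) was higher and 24 were lower. The share of all genes at an unadjusted p was not counted, here or for the lists and scan days below. In 9 of the 33 (Zbtb16, Tsc22d3, Sgk1, Mertk, Fkbp5, Arrdc2, Gpd1, Mfsd2a and Rhou) every KO chimera lay below every control, as in 0.85% of all genes. Because the genes were chosen with this contrast known, nothing is read from these shares.

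**Figure D1:**
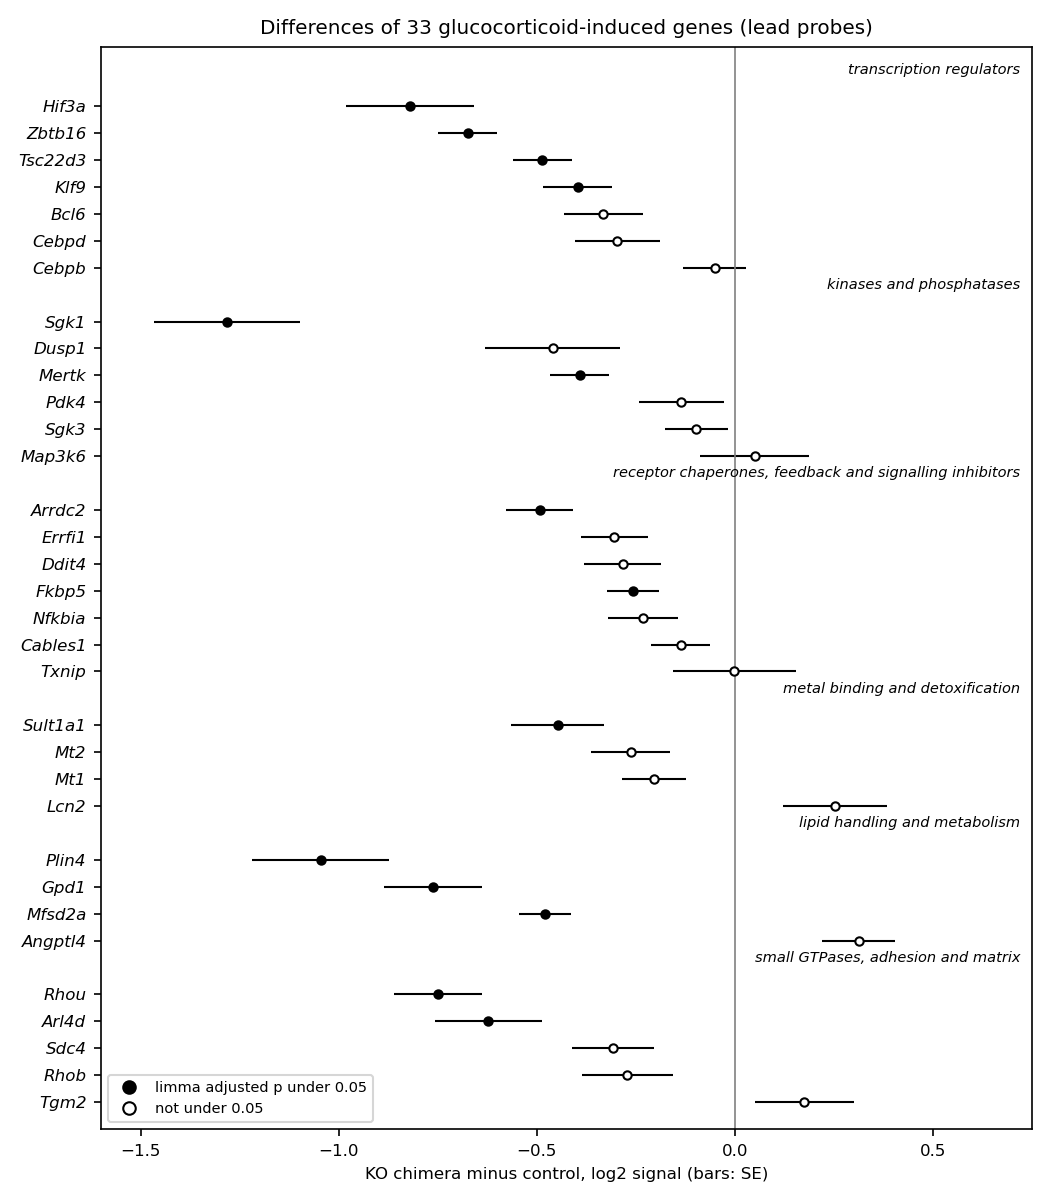
Difference between groups (KO chimera minus control, log2 signal) for the lead probe of each of the 33 genes, by role; bars are standard errors and filled points passed limma's adjusted p of 0.05. All 14 filled points lie left of 0, and 4 open points lie right of it.

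Among 7 transcription regulators, 4 passed as lower, with a median difference of -0.40. Zbtb16 encodes the zinc finger factor PLZF. Its probe (chr9:48462419-48462478, mm9, minus strand) read 0.03, 0.13 and 0.28 (lowest, median, highest) in KO chimeras, against 0.51, 0.82 and 1.18 in controls. It averaged 0.15 ± 0.08 in KO chimeras and 0.82 ± 0.18 in controls (SD, n = 8 each), a difference of -0.67 ± 0.08 (SE). The groups did not overlap, and the KO chimeras lay closer together than the controls. Tsc22d3, whose product restrains inflammatory transcription factors (probe at chrX:137074094-137074153, minus strand), had 3.50, 3.66 and 3.99 in KO chimeras, against 3.99, 4.21 and 4.34 in controls. The difference was -0.49 ± 0.07, and the groups touched at 3.99 without overlapping. Klf9, a Krüppel-like factor also induced by thyroid hormone (probe at chr19:23240410-23240469, plus strand), had 1.87, 2.13 and 2.25 in KO chimeras, against 2.23, 2.47 and 2.88 in controls. Its difference was -0.40 ± 0.09, with an overlap between the highest KO chimera and the lowest control.

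Hif3a encodes a hypoxia-inducible factor subunit that can restrain the other subunits of its family, and its 3 probes did not give the same picture. The lead probe (chr7:17616855-17616914, minus strand) read -1.92, -1.54 and -0.90 in KO chimeras, against -1.33, -0.71 and -0.16 in controls, a difference of -0.82 ± 0.16 with overlapping groups. A dimmer probe at chr7:17636526-17636585 had -3.84, -3.27 and -2.03 in KO chimeras, against -3.70, -3.20 and -2.33 in controls, a difference of 0.00 ± 0.25. The probe that missed the filter (chr7:17620811-17620870) had means of -5.50 in KO chimeras and -4.74 in controls. So the call on Hif3a rests on its brightest probe. The other 3 regulators did not pass: Bcl6, a transcriptional repressor, differed by -0.33 ± 0.10, Cebpd by -0.30 ± 0.11 and Cebpb by -0.05 ± 0.08, the last pair being C/EBP factors of the acute phase and fat cell programmes.

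Among 6 kinases and phosphatases, 2 passed as lower, with a median of -0.26. Sgk1, the serum- and glucocorticoid-regulated kinase that controls sodium channels and other transporters, had the largest difference of the 33. Its probe (chr10:21719507-21719566, plus strand) read 0.60, 1.37 and 1.73 in KO chimeras, against 2.01, 2.45 and 3.21 in controls. The means were 1.24 ± 0.38 in KO chimeras and 2.52 ± 0.40 in controls (SD, n = 8 each), a difference of -1.28 ± 0.18, or 0.41 times the control level. Every KO chimera was below every control. Only Sgk1 and Plin4 of the 33 differed by at least 1 on the log2 scale, as did 83 of all genes tested. Mertk, a receptor tyrosine kinase through which microglia and astrocytes take up dying cells (probe at chr2:128627867-128627926, plus strand), had -1.17, -0.94 and -0.72 in KO chimeras, against -0.70, -0.54 and -0.39 in controls. Its difference was -0.39 ± 0.08, and the groups did not overlap.

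The other 4 of this group did not pass. Dusp1, which inactivates MAP kinases, differed by -0.46 ± 0.17, with a wide spread in both groups (SD 0.31 in KO chimeras and 0.42 in controls). Pdk4, which shuts down pyruvate dehydrogenase, differed by -0.14 ± 0.11. Map3k6, a kinase upstream of MAP kinases, differed by 0.05 ± 0.14, and its sign depended on the setting, with -0.08 when arrays were centred on their medians. Sgk3, a relative of Sgk1 that acts on endosomes, had probes of opposite sign. Its lead probe read 1.91, 2.22 and 2.39 in KO chimeras, against 2.10, 2.26 and 2.58 in controls (-0.10 ± 0.08). Its dim second probe read -4.18, -3.77 and -2.82 in KO chimeras, against -4.94, -4.46 and -3.62 in controls (0.68 ± 0.20). No direction is therefore given for Sgk3, and whether it differed from Sgk1 was not tested.

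Among 7 receptor chaperones, feedback proteins and signalling inhibitors, 2 passed as lower, with a median of -0.26, and all 7 lead probes had a negative difference. Fkbp5 encodes the co-chaperone that lowers the hormone affinity of the glucocorticoid receptor and is a standard marker of receptor activity. Its probe (chr17:28536060-28536119, minus strand) read 1.26, 1.41 and 1.55 in KO chimeras, against 1.57, 1.63 and 1.98 in controls. The means of 1.41 ± 0.11 in KO chimeras and 1.67 ± 0.13 in controls (SD, n = 8 each) gave a difference of -0.26 ± 0.07, the smallest of the 14. The groups came close without overlapping. Arrdc2, an arrestin-domain protein, had 0.39, 0.71 and 0.95 in KO chimeras, against 0.98, 1.17 and 1.44 in controls (probe at chr8:73359065-73359124, minus strand). Its difference was -0.49 ± 0.09 with no overlap, and a second probe whose position overlaps the first gave -0.53 ± 0.07.

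The 5 that did not pass had differences from -0.31 to -0.0017. Errfi1, an inhibitor of the epidermal growth factor receptor, differed by -0.31 ± 0.09, and Ddit4, an inhibitor of mTORC1, by -0.28 ± 0.10. Nfkbia, the inhibitor of NF-kappaB, differed by -0.23 ± 0.09, and Cables1, an adaptor of cyclin-dependent kinases, by -0.14 ± 0.07. Txnip, which binds thioredoxin and limits glucose uptake, did not separate the groups. Its lead probe had -0.38, -0.12 and 0.37 in KO chimeras, against -0.79, -0.05 and 0.47 in controls (-0.0017 ± 0.16). A second probe had -2.79, -2.25 and -1.47 in KO chimeras, against -2.83, -2.42 and -1.995 in controls (0.21 ± 0.16).

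Lipid handling and metabolism held 4 genes, of which 3 passed as lower, with a median of -0.62. Plin4, a coat protein of lipid droplets (probe at chr17:56240055-56240114, minus strand), read -1.89, -1.42 and -0.73 in KO chimeras, against -0.83, -0.34 and 0.22 in controls. Its means were -1.38 ± 0.41 in KO chimeras and -0.33 ± 0.32 in controls (SD, n = 8 each), a difference of -1.05 ± 0.17 or 0.48 times the control level, and the groups overlapped at one end. Gpd1, the cytosolic glycerol-3-phosphate dehydrogenase that links glycolysis to lipid synthesis (chr15:99555334-99555393, plus strand), read 0.87, 1.04 and 1.101 in KO chimeras, against 1.34, 1.71 and 2.31 in controls. The difference was -0.76 ± 0.12, with an SD of 0.09 in KO chimeras and 0.35 in controls, so that the KO chimeras formed a tight cluster below a spread control group. Mfsd2a, the blood-brain barrier transporter of lysophospholipids that carry omega-3 fatty acids (chr4:122624182-122624241, minus strand), read 0.82, 0.91 and 0.98 in KO chimeras, against 1.18, 1.36 and 1.65 in controls. Its difference was -0.48 ± 0.07 with no overlap. Angptl4, a secreted inhibitor of lipoprotein lipase, was the exception, with 0.53 ± 0.10 in KO chimeras and 0.22 ± 0.24 in controls (SD, n = 8 each). That difference of 0.31 ± 0.09 did not pass in limma, but it did when probes had to be well above background on all arrays and with a trended, robust variance model.

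Small GTPases, adhesion and matrix proteins numbered 5, of which 2 passed as lower, with a median of -0.31. Rhou, an atypical small GTPase (chr8:126187714-126187773, plus strand), read 1.34, 1.92 and 2.13 in KO chimeras, against 2.36, 2.54 and 2.85 in controls, and its groups did not overlap. The difference was -0.75 ± 0.11, or 0.59 times the control level. Arl4d, an ARF-like GTPase (chr11:101528989-101529048, plus strand), read -1.33, -1.11 and -0.57 in KO chimeras, against -0.90, -0.44 and 0.06 in controls. Its difference was -0.62 ± 0.14, and a second probe with an overlapping position gave -0.99 ± 0.17, with overlap between the groups on both probes. Of the rest, Sdc4, a heparan sulphate proteoglycan of the cell surface, differed by -0.31 ± 0.10 and Rhob, a small GTPase of endosomes, by -0.27 ± 0.12 (second probe -0.09 ± 0.09). Tgm2, a protein-crosslinking transglutaminase, differed by 0.18 ± 0.13 on its lead probe and by 0.27 ± 0.10 on its second.

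Metal binding and detoxification held 4 genes, of which 1 passed as lower, with a median of -0.23. Sult1a1, a phenol sulphotransferase (chr7:133816605-133816664, minus strand), read -0.60, -0.21 and 0.02 in KO chimeras, against -0.15, 0.16 and 0.68 in controls. Its difference was -0.45 ± 0.12 with overlapping groups, and a second probe, overlapping in position, gave -0.42 ± 0.10. The metallothioneins Mt1 and Mt2, which bind zinc and copper, differed by -0.20 ± 0.08 and -0.26 ± 0.10 and did not pass, and a second, dim Mt1 probe gave -0.04 ± 0.14. Lcn2, a siderophore-binding lipocalin of the acute phase, differed by 0.25 ± 0.13. With every probe tested on its own, 1.79% of the probes were lower, among them the second probes of Arrdc2, Arl4d and Sult1a1.

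**Figure D2:**
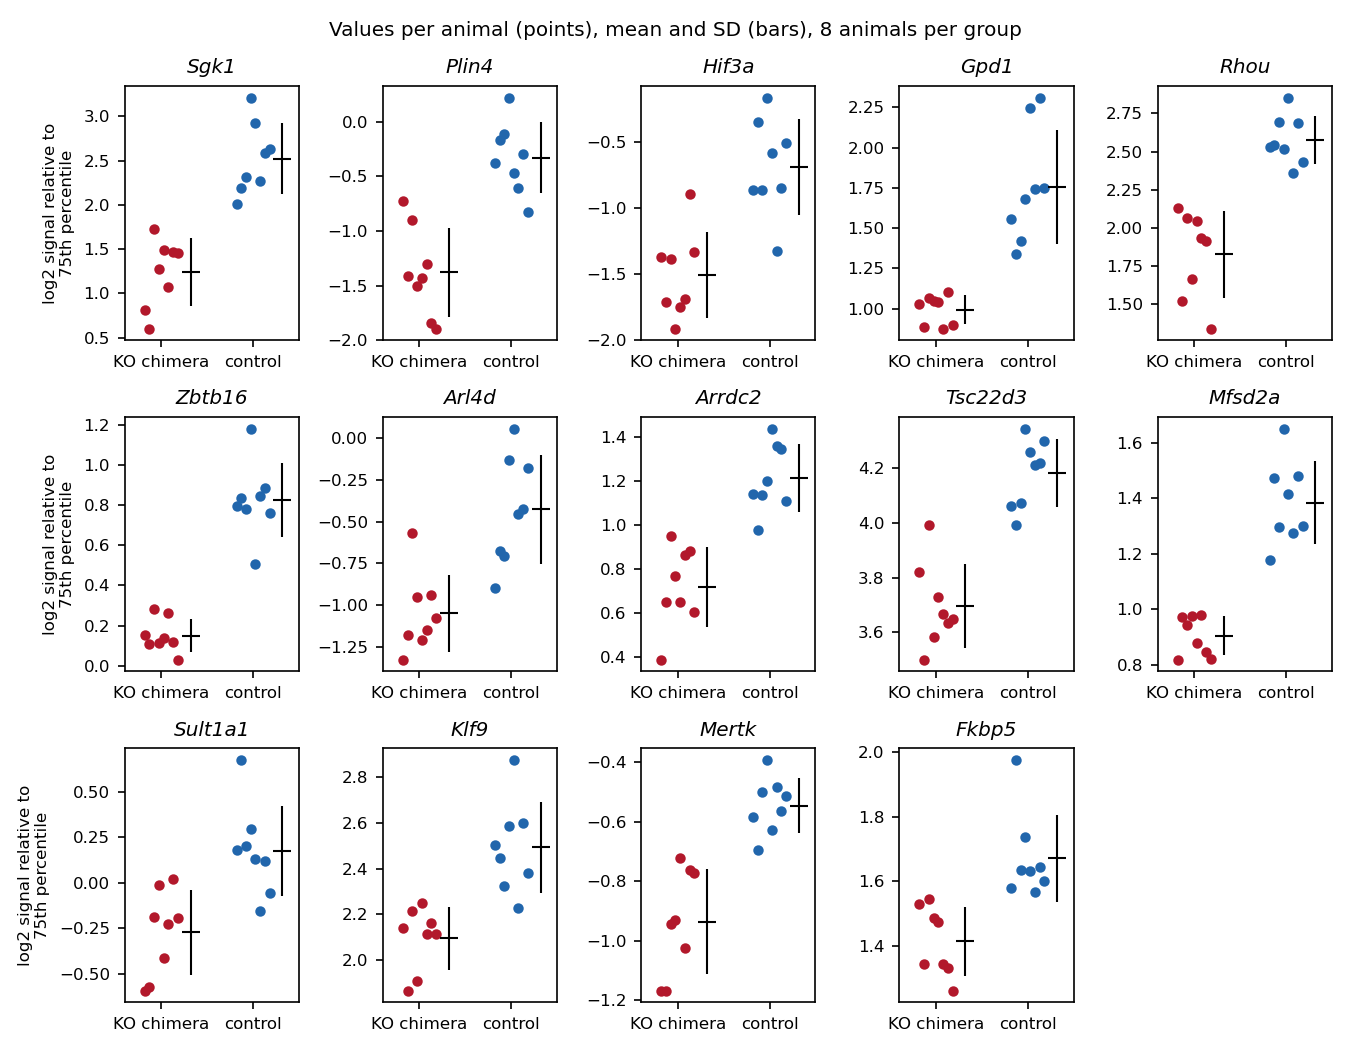
Log2 signal (75th percentile of each array at 0) for each animal (points; KO chimera red, control blue) with the group mean and SD (bars) for the 14 genes that passed; each panel has its own scale. Gpd1, Mfsd2a and Zbtb16 show KO chimeras in a narrow band below all 8 controls, whereas Klf9, Hif3a, Plin4, Arl4d and Sult1a1 overlap.

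To show whether the promoters hold the receptor's DNA element, the 250 bases before each start site were read from RefSeq (GRCm38.p6), which had entries for 26 of the 33 genes. The palindrome made of GNACA, any 3 bases and TGTNC, which reads the same on both strands, was found for 4 of the 26 genes (Sgk1, Map3k6, Txnip and Mt1) and for 0.440% of 27025 genes. Sgk1 is 1 of 12 genes that passed as lower and have a promoter entry. These are the windows with the palindrome in capitals, the fifth start site being shown for Sgk1:
Sgk1, chr10:21993640-21993889, plus strand: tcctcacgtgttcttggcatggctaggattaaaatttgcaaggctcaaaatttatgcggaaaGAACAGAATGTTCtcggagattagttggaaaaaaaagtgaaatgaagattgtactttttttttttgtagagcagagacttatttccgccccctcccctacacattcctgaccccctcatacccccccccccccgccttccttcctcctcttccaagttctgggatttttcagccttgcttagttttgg
Map3k6, chr4:133240568-133240817, plus strand: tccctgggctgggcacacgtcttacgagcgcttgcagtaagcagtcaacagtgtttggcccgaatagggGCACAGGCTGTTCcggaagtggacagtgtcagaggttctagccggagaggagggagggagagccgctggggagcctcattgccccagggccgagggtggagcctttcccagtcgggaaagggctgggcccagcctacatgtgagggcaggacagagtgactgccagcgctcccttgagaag
Txnip, chr3:96557707-96557956, plus strand: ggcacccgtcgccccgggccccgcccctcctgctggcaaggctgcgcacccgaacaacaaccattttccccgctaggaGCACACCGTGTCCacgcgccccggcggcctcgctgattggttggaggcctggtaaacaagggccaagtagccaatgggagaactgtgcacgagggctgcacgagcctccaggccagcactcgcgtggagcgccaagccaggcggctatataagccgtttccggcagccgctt
Mt1, chr8:94178839-94179088, plus strand: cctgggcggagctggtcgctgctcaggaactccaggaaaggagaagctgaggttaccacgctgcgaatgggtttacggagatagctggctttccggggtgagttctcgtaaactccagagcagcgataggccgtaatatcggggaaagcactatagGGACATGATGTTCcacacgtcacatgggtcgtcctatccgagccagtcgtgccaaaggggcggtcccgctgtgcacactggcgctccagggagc
The Sgk1 match lies 188 to 176 bases before the start. The shorter site AGAACA, a single arm of the element, was searched on both strands and can overlap the palindrome. It was found for 4 of the 26 (Tsc22d3, Bcl6, Sgk1 and Sult1a1) and for 18.2% of all genes. Sult1a1 held it at 212 to 207 bases before the start on the opposite strand and at 34 to 29 on its own, shown here in capitals:
Sult1a1, chr7:126676419-126676668, minus strand: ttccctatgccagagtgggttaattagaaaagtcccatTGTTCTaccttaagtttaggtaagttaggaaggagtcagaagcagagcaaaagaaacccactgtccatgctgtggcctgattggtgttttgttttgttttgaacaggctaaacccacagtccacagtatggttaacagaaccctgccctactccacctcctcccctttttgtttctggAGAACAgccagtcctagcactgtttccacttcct
The core of the metal response element, TGCNCNC on either strand, was found for 18 of the 26 and for 47.2% of all genes, with 5 copies before Mt2 and 1 before Mt1. These matches describe letters in a short window, and many receptor sites lie outside such windows.

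The other genes of the pathway, from lists that do not hold the 33, follow. Of 19 tested genes for corticosteroid receptors, chaperones and the stress axis, limma called 0 lower and 0 higher by lead probe. At an unadjusted p below 0.05 these were 3 and 1, and the median difference was -0.06. With every probe tested on its own, a further probe of Ncoa1 was lower (-0.31 ± 0.05, limma adjusted p = 0.0128; lead probe -0.14 ± 0.06). So was a further probe of Ncor1 (-0.26 ± 0.06, limma adjusted p = 0.0434). The other Ncor1 probes disagreed, with 0.04 ± 0.10 (lead), -0.23 ± 0.07 and 0.40 ± 0.16. Nr3c1, the glucocorticoid receptor, averaged 3.51 ± 0.08 in KO chimeras and 3.59 ± 0.15 in controls (SD, n = 8 each), with a limma adjusted p of 0.483. Nr3c2, the mineralocorticoid receptor, differed by 0.14 ± 0.09 and Crh, the releasing hormone, by -0.15 ± 0.19. Hsd11b1, which regenerates active corticosterone inside cells, averaged 0.29 ± 0.21 in KO chimeras and 0.66 ± 0.33 in controls, with a limma adjusted p of 0.118. Of 15 other glucocorticoid-responsive genes tested, 2 passed as lower, with a median of 0.00. These were Klf15, a Krüppel-like regulator of amino acid use (-0.41 ± 0.10, limma adjusted p = 0.0372), and Glul, glutamine synthetase of astrocytes (-0.26 ± 0.07, limma adjusted p = 0.0428). The clock gene Per1 differed by -0.25 ± 0.08 and did not pass (limma adjusted p = 0.0757).

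Cell type markers moved with the group as well, and their part in the differences of the glucocorticoid-induced genes was not tested beyond the covariate fits given here. Of 13 oligodendrocyte markers, 4 passed as lower, with a median of -0.21 and a summed linear level of 184 to 340 in KO chimeras, against 239 to 359 in controls. Of 13 thalamus markers, 2 passed as lower, with a median of -0.49 and a sum of 35.3 to 71.9 in KO chimeras, against 50.7 to 133 in controls. With the mean of the oligodendrocyte markers as a covariate, 1 of the 33 genes (Zbtb16) still passed as lower, as did 0.00411% of all genes. With that of the thalamus markers 2 did (Zbtb16 and Mfsd2a), as did 0.0287% of all genes. The median difference of the 33 was -0.31 with the oligodendrocyte covariate and -0.30 with the thalamus covariate. Gpd1 had a difference of -0.39 with the oligodendrocyte covariate and -0.59 with the thalamus covariate, while Zbtb16 had -0.74 with either.

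The remaining lists moved in either direction. By lead probe, 3 of 12 microglia markers passed as lower (7 at an unadjusted p below 0.05), 11 had a negative difference and the median was -0.22. Their sums, 167 to 224 in KO chimeras and 155 to 219 in controls, are carried largely by Siglech. Its lead probe was the only one with a positive difference (0.11 ± 0.10), and its other probes gave -0.36 ± 0.24 and 0.42 ± 0.17. Probes of Cx3cr1 disagreed as well. Its lead probe gave -0.25 ± 0.08 and another -0.25 ± 0.09. A further Cx3cr1 probe was higher, at 0.61 ± 0.08 (limma adjusted p = 0.0066 over every probe). Of 10 astrocyte markers 1 passed as lower (4 at an unadjusted p below 0.05), with a median of -0.16 and sums of 368 to 551 in KO chimeras and 385 to 571 in controls. Of 10 endothelial and mural markers 0 passed in either direction by limma (0 lower and 1 higher at an unadjusted p below 0.05), with a median of 0.05. The neutrophil markers S100a8, Ngp, Ltf and Retnlg were too dim to be tested, and 0 of the other 4 passed (0 at an unadjusted p below 0.05). Of 6 red blood cell markers 1 passed as lower, with a median of -0.29 and sums of 56.2 to 91.6 in KO chimeras and 68.9 to 118 in controls. Of 8 neuron markers 1 (Rbfox3) passed as lower, with 7 negative differences and a median of -0.12. Ependyma and tanycyte markers went mostly the other way: 1 of 10 (Dio2) passed as lower, but the other 9 had positive differences, 5 of them at an unadjusted p below 0.05, with a median of 0.47 and sums of 18.2 to 32.5 in KO chimeras, against 9.41 to 22.8 in controls. Of the 14 hypothalamus markers limma called 0 (0 lower and 4 higher at an unadjusted p below 0.05), 4 had a negative difference and the median was 0.17. Of 6 choroid plexus markers limma called 0 (0 lower and 1 higher at an unadjusted p below 0.05), with a median of -0.11. Their sums ranged widely inside each group, from 5.66 to 48.4 in KO chimeras and from 4.97 to 59.5 in controls. The part of these lists in the differences of the 33 genes was not tested.

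The same difference, on the same arrays, is described here within slides and scan days, which adds no independent support. Of the 6 slides, 5 held both groups, and 23, 27, 26, 28 and 30 of the 33 genes were lower in KO chimeras in slides 1, 3, 4, 5 and 6. Slides 4 and 5 compare 1 KO chimera with 1 control each. The share of all genes that were lower within a slide was not counted, so nothing is read from these counts. The 14 genes had passed on these same arrays, and nothing is read from their counts either. Of these, 12 were lower in all 5 slides, while Plin4 and Arl4d were lower in 4. With slide as a fixed block 11 of the 33 passed as lower, where 1.49% of all genes did: Klf9, Mertk, Fkbp5 and Arl4d were lost and Sdc4 was gained. Within the scan days, with 4 animals per group each, the median difference was -0.42 on day 1 and -0.24 on day 2. By limma 0 of the 33 passed as lower on day 1 (20 at an unadjusted p below 0.05) and 1, Zbtb16, on day 2 (15 at an unadjusted p below 0.05). Over all 24358 genes, 0 passed as lower on day 1 and 3 on day 2. Leaving out 1 animal at a time, 12 of the 14 passed each time, whereas Fkbp5 and Sult1a1 passed in 4 of 16 such fits.

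**Figure D3:**
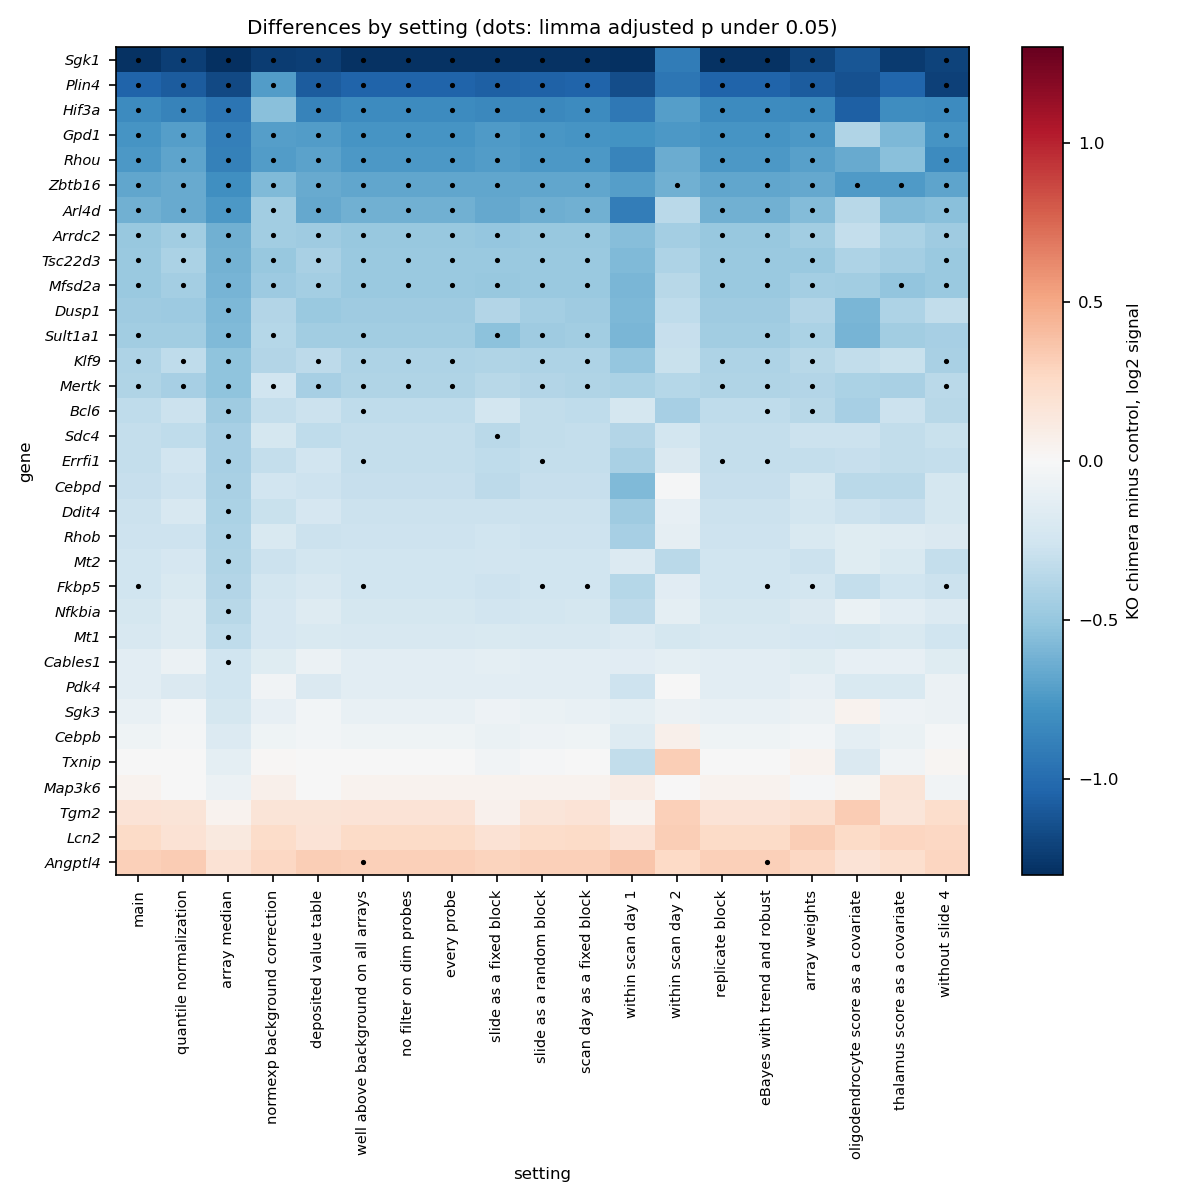
Difference between groups (colour, KO chimera minus control, log2 signal) for each of the 33 genes (rows) under each way of processing the data (columns); a dot marks a limma adjusted p under 0.05. Zbtb16 has a dot in all columns but that of scan day 1, and Lcn2, Tgm2 and Angptl4 are the rows that stay above 0 throughout.

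Across animals the mean of the 33 genes, each centred over the 16 arrays, separated the groups without overlap. It was -0.24, -0.27, 0.0012, -0.18, -0.13, -0.21, -0.11 and -0.25 in KO chimeras 1 to 8, against 0.09, 0.17, 0.14, 0.34, 0.24, 0.04, 0.21 and 0.17 in controls 1 to 8. KO chimera 3 was the highest of its group and control 4 the highest of all, while control 6 was the lowest control. The separation follows from the choice of the genes and is no test. The thalamus marker mean overlapped between the groups, with control 4 among the lowest animals.

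**Figure D4:**
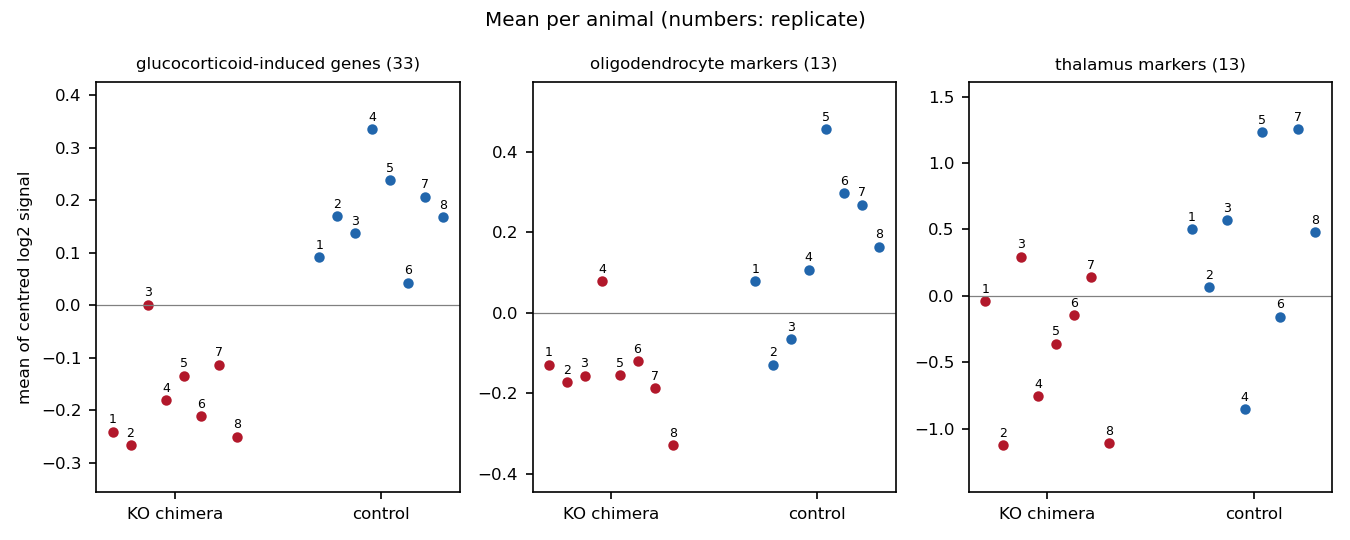
Mean of centred log2 signals per animal (points, numbered by replicate; KO chimera red, control blue) for the 33 glucocorticoid-induced genes, 13 oligodendrocyte markers and 13 thalamus markers. The first panel separates the groups, and the other panels overlap.

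How the genes vary together inside a group does not use the contrast. Over 528 pairs of lead probes, the median Pearson r across 8 animals was 0.19 in KO chimeras, with 362 pairs positive, and 0.16 in controls, with 329 positive. Over all genes tested the mean r of pairs was 0.0091 in KO chimeras and 0.0082 in controls. Some animals shared a slide or a scan day, and how they were dissected is not given, so these values are descriptions. Centred within scan days, the medians were 0.17 in KO chimeras and 0.14 in controls. Without KO chimera 3 the median in KO chimeras was 0.076, and without control 4 that in controls was 0.067, so 1 animal moved each group's value by over 1.5 times. Among the 14 genes that passed, the median over 91 pairs was 0.26 in KO chimeras and 0.25 in controls, and among the other 19 genes, over 171 pairs, it was 0.17 in KO chimeras and 0.07 in controls.

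No single pair passed correction. Of 1056 tests, 0 had an adjusted p below 0.05 (exact permutation test, two-sided, Benjamini-Hochberg over both groups), and 37 pairs in KO chimeras and 36 in controls had an unadjusted p below 0.05. In KO chimeras the highest value was that of Cables1 and Txnip (r = 0.93, exact permutation p = 0.00171, adjusted 0.507; rho = 0.83, exact p = 0.0154, adjusted 0.524; r = 0.76 without the 2 animals farthest from the median of Cables1). In controls it was that of Ddit4 and Mfsd2a (r = 0.95, exact permutation p = 0.000496, adjusted 0.262; rho = 0.93, exact p = 0.00223, adjusted 0.402; r = 0.83 without 2 animals). Next in KO chimeras came Rhou with Mt1 (r = 0.86), Ddit4 with Dusp1 (0.84), Pdk4 with Dusp1 (0.84) and Ddit4 with Errfi1 (0.83), with exact permutation p of 0.00627 to 0.0104, adjusted 0.507, rho of 0.76 to 0.90 and r of 0.65 to 0.88 without 2 animals. In controls the next were Sgk3 with Arrdc2 (r = 0.94), Sult1a1 with Fkbp5 (0.91), Gpd1 with Sgk3 (0.90) and Txnip with Hif3a (0.89), with exact permutation p of 0.000347 to 0.00459, adjusted 0.262 to 0.507, rho of 0.76 to 0.90 and r of 0.50 to 0.91 without 2 animals. The lowest r in KO chimeras was that of Cables1 with Lcn2 (r = -0.85, exact permutation p = 0.00335, adjusted 0.507; rho = -0.83; r = -0.95 without 2 animals). In controls it was that of Angptl4 with Rhob (r = -0.86, exact permutation p = 0.00513, adjusted 0.507; rho = -0.90; r = -0.78 without 2 animals), a pair with r = -0.80 in KO chimeras, where it was -0.40 without 2 animals. The other 4 of the lowest 5 had r of -0.80 to -0.67 in KO chimeras (Angptl4 with Rhob, Bcl6 with Tgm2, Plin4 with Sgk3 and Mfsd2a with Hif3a) and of -0.80 to -0.75 in controls (Dusp1 with Mt1, Angptl4 with Gpd1, Mt2 with Cebpd and Angptl4 with Sgk3), with adjusted p of 0.507 to 0.707 by the exact permutation test.

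The pattern of pairs differed in sign between the groups for 229 of the 528 pairs, a difference that was not tested. In both groups r was above 0.5 for 25 pairs and above 0.7 for 3: Ddit4 with Sgk1 (0.75 in KO chimeras and 0.83 in controls), Ddit4 with Pdk4 (0.80 in KO chimeras and 0.75 in controls) and Cables1 with Errfi1 (0.80 in KO chimeras and 0.72 in controls). For these 3 pairs the exact permutation p, adjusted, was 0.507 to 0.697, and rho was 0.57 to 0.90 in KO chimeras and 0.62 to 0.71 in controls. Ddit4 and Sgk1, targets that answer the hormone quickly in many cells, kept r = 0.77 in KO chimeras but 0.48 in controls without the 2 animals farthest from the median of Ddit4. The neighbouring metallothionein genes Mt1 and Mt2 had r = 0.69 in KO chimeras and 0.85 in controls (rho 0.62 in KO chimeras and 0.67 in controls; exact permutation p adjusted to 0.707 in KO chimeras and 0.507 in controls), and without 2 animals r was 0.16 in KO chimeras and 0.57 in controls. Their median r with the other genes was positive in KO chimeras (0.26 for Mt1 and 0.38 for Mt2) and negative in controls (-0.24 for Mt1 and -0.19 for Mt2). The SD was smaller in KO chimeras for 18 of the 33 genes (54.5%), against 42.2% of all genes. The median SD of the 33 was nevertheless larger in KO chimeras (0.208) than in controls (0.185). Over all genes it was 0.209 in KO chimeras and 0.185 in controls, and no difference in spread was tested.

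**Figure D5:**
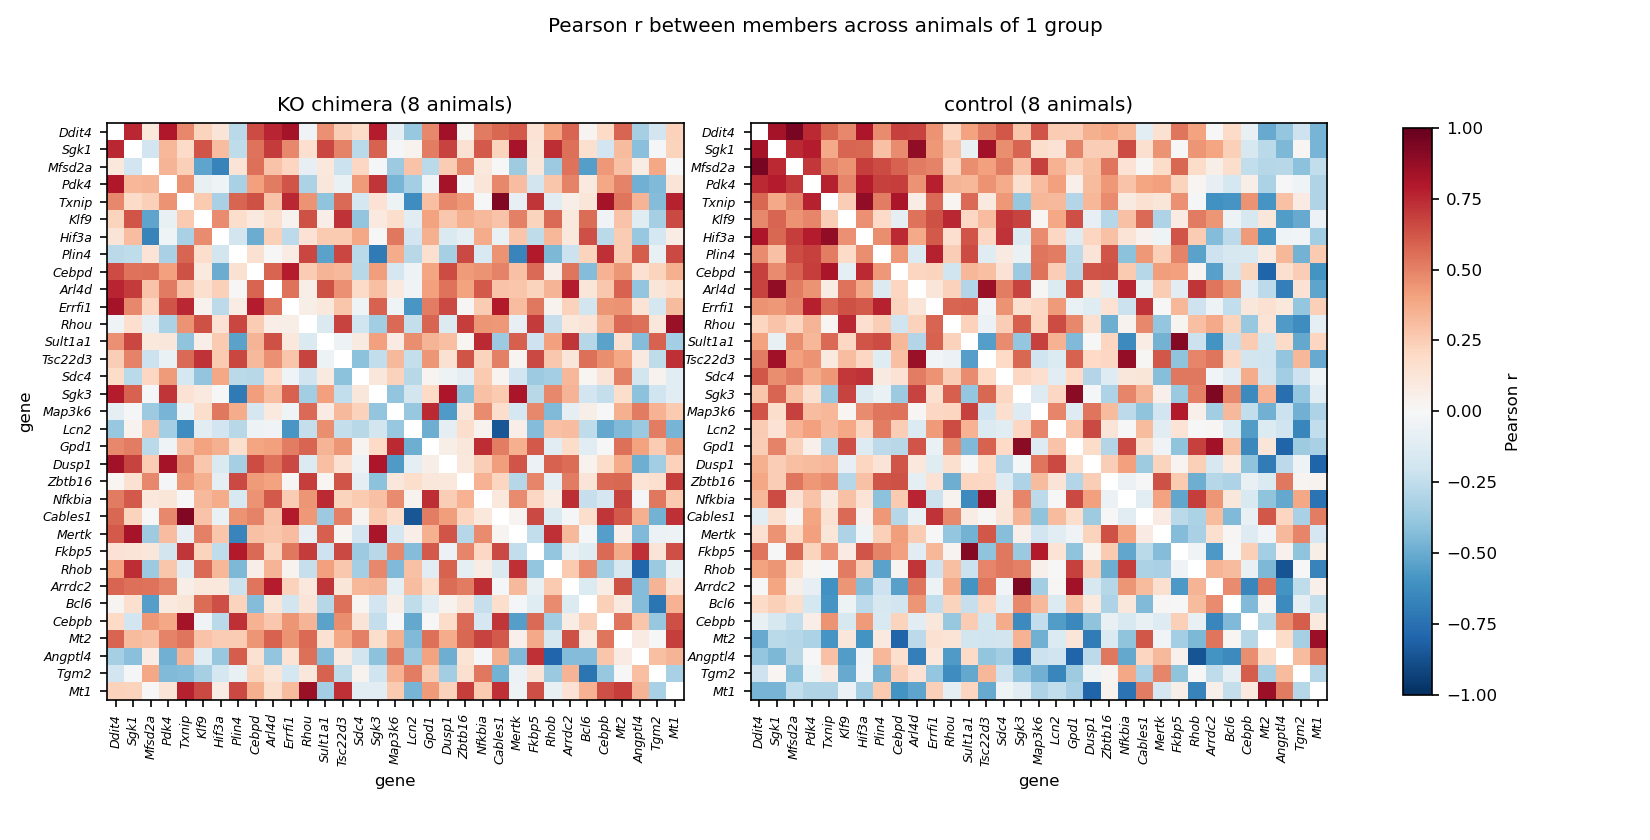
Pearson r (colour) between the lead probes of each pair of the 33 genes across the 8 KO chimeras (left) and the 8 controls (right), in the same gene order. Within each panel more pairs are positive than negative (362 of 528 on the left and 329 on the right), and the rows of Mt1 and Mt2 are mostly positive on the left and mostly negative on the right.

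The genes outside the 33 whose deviations from the group means followed the mean of the 33 most closely over the 16 arrays were Prdm8 (r = 0.80), Ppp1r3g (0.77), Cep76 (0.75), Csrnp1 (0.75), Kdm4a (0.74), 4921524J17Rik (0.74), Tubgcp4 (0.74), 4930412C18Rik (0.73), C030016D13Rik (0.73) and Mapk9 (0.73). They are the top of a ranking over all genes tested, so these values carry no test.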

How the data were processed

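The authors deposited 1 scanner file per array, with a processed intensity per spot on a linear scale, background already subtracted per the file headers, extracted with version 10.7 of Agilent Feature Extraction, as the submitters' processing notes say. They also deposited a series table of log2 values for which no label names the step that aligned the arrays. Over spots above a low cut-off of signal, it correlated with the scanner's log2 values at 0.9996 or more on each array. It served as an alternative. Control spots and outlier flags were left out, log2 was taken, the array's 75th percentile over non-control spots was subtracted, and spots of a probe were averaged. Genes were tested through their brightest probe if it was well above background on at least 8 arrays, with limma (lmFit, eBayes; version 3.58.1 under R 4.3.3) and a Benjamini-Hochberg threshold of 0.05. Probes of the other lists were named by RefSeq accession or symbol. Pairs were tested by exact permutation over all orderings of the 8 animals with numpy 2.4.6, with ranks from scipy 1.17.1. The scripts were tested on simulated data.

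The 33 genes, the other lists and the tests were chosen with earlier results of these data known. Named were all 33 genes with every probe, the pairs and likeness ranks at the extremes, up to 3 genes with the smallest p of each other list, and Nr3c1, Nr3c2, Crh and Hsd11b1. Siglech, Cx3cr1, the further probes of Ncoa1 and Ncor1, and the untested neutrophil markers were named after their values were seen. The labels do not say that animals of 1 number belong together, and 1 KO chimera's title is misspelled, so its group came from the source name. Nothing says how the animals were housed or dissected. Probe positions are mm9 as in the files, promoters GRCm38.p6, and the 2 were not mixed.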

Additional observations from a re-analysis of the deposited data

Results flagged for a closer look

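Among 66 gene-by-group sets of 8 animals, 3 held an animal that stood far from the others by Dixon's criterion, and chance gives about 1 in 20. KO chimera replicate 4 was low for Bcl6, at 0.84 against 1.29 for the nearest animal and a group median of 1.38. KO chimera replicate 1 was low for Dusp1, at -1.09 against -0.57 for the nearest and a median of -0.52. Control replicate 2 was high for Fkbp5, at 1.98 against 1.74 for the nearest and a median of 1.63.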

How the results depend on the processing

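Of the 33 genes, 14 passed as lower, and 11 to 16 did under quantile normalization (12), normexp (11), the deposited table (12), the stricter filter (16), no filter (12), every probe on its own (12), slide as a fixed (11) or random (15) block, scan day as a block (14), the trended robust model (16) and array weights (15). Over all genes, 675 were lower, and 230 (normexp) to 946 (stricter filter) under these alternatives. Centring arrays on their median, which moved the median of all genes to -0.13, gave 25 lower, with 4024 of 24358 genes lower in all, a median difference of -0.43 and a median pair r of 0.33 in KO chimeras. The counts were 0 within scan day 1, whose median difference was -0.42, 1 within scan day 2, 1 with the oligodendrocyte covariate and 2 with the thalamus covariate. The count of higher genes was 1 with the stricter filter, with the trended robust model and without control replicate 1, and 0 otherwise. Leaving out 1 animal at a time gave 12 to 16 lower, 0 to 1 higher, median differences of -0.34 to -0.28, and median pair r of 0.076 to 0.243 in KO chimeras and 0.067 to 0.226 in controls. The median pair r in KO chimeras was 0.13 under quantile normalization, normexp and the deposited table. Without slide 4, an alternative chosen after seeing the data, 13 were lower. Its arrays had the fewest and the most spots above background and the spike-in R2 of 0. Same-numbered animals had correlations of deviations from -0.07 to 0.24, not all above 0.1, and no label pairs them, so the number was not taken as a pairing. Pair 2 shared slide 6 and scan day 1 (0.24), and pairs 3, 6 and 8 shared a scan day (0.0085, 0.17 and 0.22). With the replicate block 13 passed as lower. No direction reversed for a gene that passed.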
